A study of Mus musculus with 18 samples.

Results

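The comparison set mouse leukemic erythroid cells that received both a knockdown of Spi1 and the histone deacetylase inhibitor entinostat against the same cells that received neither, across all genes of the count table. It rested on 6 of the 18 libraries of the series: 3 of the combined treatment (Dox_Entinostat) and 3 of the vehicle (NoDox_DMSO). The cells were a TgSpi1 erythroleukemic line from mouse bone marrow, whose cells carry a Spi1 transgene and a doxycycline-inducible short hairpin RNA against Spi1, and all groups grew in culture with erythropoietin (EPO). Vehicle cells had no doxycycline and were given DMSO. Combined cells had doxycycline for 48 h to switch on the hairpin, and entinostat at 3 µM for 6 h. The single treatments used for the sum were doxycycline for 48 h with DMSO (Dox_DMSO, 3 libraries) and entinostat at 3 µM for 6 h without doxycycline (NoDox_Entinostat, 3 libraries). A separate experiment 1 held 3 libraries without and 3 with doxycycline for 48 h, neither given entinostat nor DMSO by its labels. All groups came from this 1 line and no group carried a control hairpin, so the effects of doxycycline and of the loss of Spi1 RNA cannot be told apart. The labels call the 3 libraries of a group biological replicates. The question was what the double treatment did to each gene and how far that lay from the sum of the 2 single effects.

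Spi1 encodes PU.1, an ETS-family transcription factor that drives macrophage, granulocyte and B cell genes and is normally turned down as erythroid cells mature; in this leukemia it is overproduced and the cells stay immature. Class I histone deacetylases remove acetyl groups from histones and work within corepressor complexes, and entinostat blocks them. Inhibitors of this class are known for raising many silent genes and for lowering highly transcribed ones in a broad range of cells.

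Library totals ran from 47.3 to 48.8 M counts for vehicle and from 43.1 to 44.4 M for the combined treatment. Levels are given as CPM, the number of a gene's counts in every 1 M counts of its library, scaled by TMM factors; they compare libraries and not genes of different length. Of 12 libraries in this experiment, 2 stood apart from the other 2 of their group: the root mean square log2 distance was 0.753 for Dox_DMSO library 1 and 0.735 for NoDox_Entinostat library 1, against 0.200 to 0.442 for the other 10. Neither is a vehicle or a combined library, but both enter the sum of the single effects and the shared estimate of spread, so results on the sum are given with and without them. The cause of their distance was not tested.

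**Figure D1:**
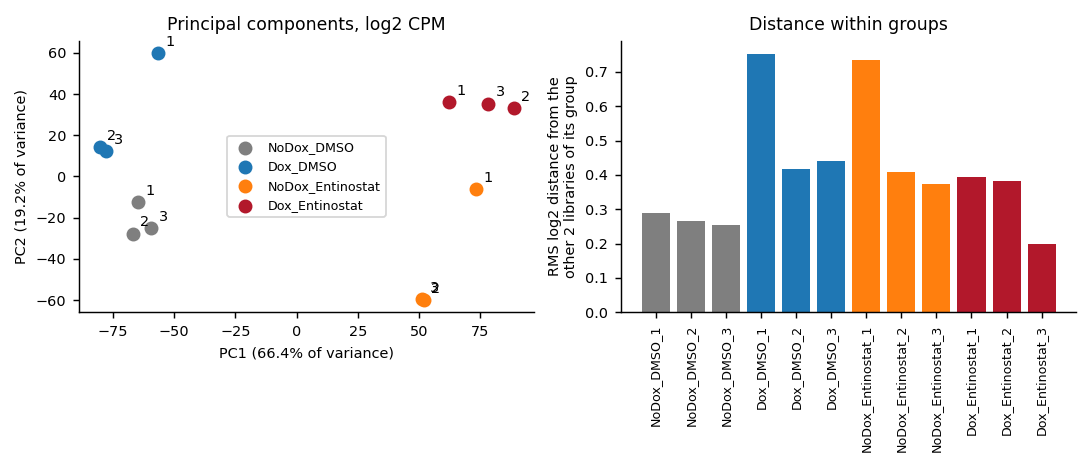
Left, the 12 libraries on the first 2 principal components of log2 expression, which hold 66.4% and 19.2% of the variance; right, bars give each library's root mean square log2 distance from the other 2 libraries of its group. Entinostat and DMSO libraries separate on the first component, and Dox_DMSO library 1 (0.753) and NoDox_Entinostat library 1 (0.735) have the longest bars.

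The labelled cell type was checked against marker genes of 8 cell types. The 10 erythroid markers summed to 3479 to 3633 CPM in the vehicle libraries and to 5885 to 7866 CPM in the combined ones, with 9 of 10 at a mean of 1 CPM or more in both. Of 6 macrophage and monocyte markers, 1 reached a mean of 1 CPM (Cd68), and the sum was 2.73 to 3.08 CPM in vehicle and 2.33 to 3.66 CPM in combined libraries. The 3 neutrophil markers and the 3 B cell markers present in the table stayed under 0.4 CPM in sum in every vehicle and combined library, and 2 of the B cell markers were at 0 in both groups. In these bulk libraries, fewer cells of a type and less RNA per cell cannot be told apart.

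Spi1 itself (ENSMUSG00000002111, mm10 chr2:91082390-91115756, plus strand) was lower under the combined treatment. The 3 vehicle libraries held 200, 259 and 251 CPM and the 3 combined libraries 98.5, 162 and 132 CPM. The groups did not overlap. The log2 fold change was -0.86 ± 0.33 (standard error, n = 3 against 3, edgeR quasi-likelihood adjusted p = 0.0352), smaller than that of doxycycline in DMSO (-1.29 ± 0.33), though the difference between these contrasts, the entinostat effect in doxycycline-treated cells, was 0.43 with an adjusted p of 0.260. The call did not survive scaling by library size alone (adjusted p = 0.0789), a filter of 1 CPM in 3 libraries (0.0635), or the removal of combined library 1 (0.121) or 3 (0.0779) or of vehicle library 2 (0.0875) or 3 (0.0801).

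Most genes differed between the double treatment and vehicle. Of 15051 genes tested, 5348 were higher (35.5%) and 4425 lower (29.4%), 64.9% together, at an adjusted p under 0.05 in edgeR's quasi-likelihood test. At least 2-fold changes were found for 4477 genes higher and 2411 lower. The groups did not overlap in CPM at 77.9% of genes, 42.3% higher and 35.6% lower with the combined treatment. For scale, doxycycline in DMSO gave 568 genes higher (3.77%) and 833 lower (5.53%), 9.31% together, and entinostat alone 4554 higher (30.3%) and 2545 lower (16.9%), 47.2% together, with the same vehicle libraries in all 3 contrasts. Against entinostat alone the combined treatment gave 8.96% of genes higher and 15.1% lower (24% together), and against doxycycline alone 33.9% higher and 29.9% lower (63.7% together). Without the 2 libraries that stood apart, 42.6% of 15478 genes were higher and 35.1% lower. Leaving out each library in turn gave 4699 to 6007 genes higher and 3830 to 4796 lower. The median log2 fold change over all genes was 0.16, and 0.27 when libraries were scaled by total count alone, which moved the split to 5839 higher and 3770 lower.

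Many of the largest rises started from no or almost no RNA. The genes named as largest had a group mean of 5 CPM or more and no overlap of the groups. Among them, Btg4 (ENSMUSG00000032056, mm10 chr9:51060901-51119875, plus strand), a BTG-family regulator of mRNA decay best known in oocytes, had 0 counts in all 3 vehicle libraries. The combined libraries held 6.69, 8.91 and 7.57 CPM, and NoDox_Entinostat 2.90, 1.64 and 1.63 CPM. Against a floor of 3 counts over the vehicle group, Btg4 was at least 351-fold higher under the combined treatment and at least 91.9-fold higher under entinostat alone. Such floors and the intervals below cover counting error only.

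The erythroid microRNA locus that holds Mir144 (mm10 chr11:78073005-78073070, plus strand) and, next to it, Mir451a (chr11:78073170-78073241) was higher with both treatments than with either. Both microRNAs are made from 1 primary transcript switched on by GATA1 in red cell precursors, and miR-451a is matured by Argonaute 2 without Dicer. Their mature sequences from RefSeq (GRCm38.p6), at chr11:78073010-78073032, chr11:78073047-78073066 and chr11:78073186-78073207, are shown because they are the regulatory products of this locus, with the seed, bases 2 to 8, in capitals. The 3 seeds differ from each other.
mmu-miR-144-5p: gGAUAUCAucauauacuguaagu
mmu-miR-144-3p: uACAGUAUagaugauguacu
mmu-miR-451a: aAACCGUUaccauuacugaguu
These libraries were made from polyadenylated RNA, so the counts report the transcript over the locus and not the mature microRNAs.

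Mir144 stood at 0.0225, 0 and 0.0218 CPM in vehicle, 1.60, 1.84 and 1.85 CPM in Dox_DMSO, 0.0630, 0.0914 and 0.0926 CPM in NoDox_Entinostat, and 4.92, 21.9 and 12.8 CPM in the combined libraries. All 3 combined libraries lay above every other library, with library 1 the lowest of them. The 2 vehicle counts against 1766 combined counts gave a ratio of 898 (95% counting interval 248 to 7419). The combined level also passed the test against entinostat alone (log2 7.27, adjusted p = 1.62e-05) and against doxycycline alone (2.90, adjusted p = 0.000108). Mir451a, whose exon overlaps that of Mir451b, moved the same way, from 0.0225, 0.0652 and 0.0436 CPM to 3.13, 13.1 and 8.17 CPM (log2 7.44 ± 0.67, adjusted p = 2.60e-06).

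The meiotic crossover gene Rnf212 rose from 0, 0.0217 and 0.0436 CPM to 12.2, 15.4 and 17.7 CPM, a ratio of 687 on 3 vehicle counts (interval 235 to 3332). The lysosomal protease gene Ctsf rose from 0.0225, 0.0217 and 0.0218 CPM to 5.77, 15.8 and 12.7 CPM, a ratio of 520 on 3 counts (177 to 2522). Rnase4, a secreted ribonuclease gene that shares exonic sequence with Ang, was at 0 in the 3 Dox_DMSO libraries, at 3 counts in the vehicle group, and at 3.6, 7.53 and 7.75 CPM in the combined libraries (ratio 286, interval 97.5 to 1390). The other large rises were those of Vwa5b2, which shares exonic sequence with Alg3 and Gm49748 (log2 8.22 ± 0.77), Adam33, a metalloprotease gene (8.17 ± 0.47), Ypel4 (8.01 ± 0.66), Pln, the phospholamban gene of heart muscle, which shares exonic sequence with Cep85l and Gm47644 (7.78 ± 0.45), Redrum, a long noncoding RNA of red cell maturation (7.75 ± 0.42), Cntnap2, a neuronal adhesion gene (7.65 ± 0.43), and Ehf, an epithelial ETS factor (7.53 ± 0.44). Ehf rose from 0.180, 0.152 and 0.175 CPM to 32.8, 35.6 and 26.9 CPM, and NoDox_Entinostat held 25.2, 44.8 and 42.9 CPM.

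Genes went from off to on at low levels. With off set at under 0.1 CPM in all 3 libraries and on at 1 CPM or more in all 3, 104 genes of the table were off in vehicle and on in combined cells, and 0 were on in vehicle and off in combined. Of the 104, 48 were also on under entinostat alone, 3 under doxycycline alone, and 55 under neither. Genes on in every library of a group numbered 10327 in vehicle and 11493 in the combined treatment. These counts carry no test.

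**Figure D2:**
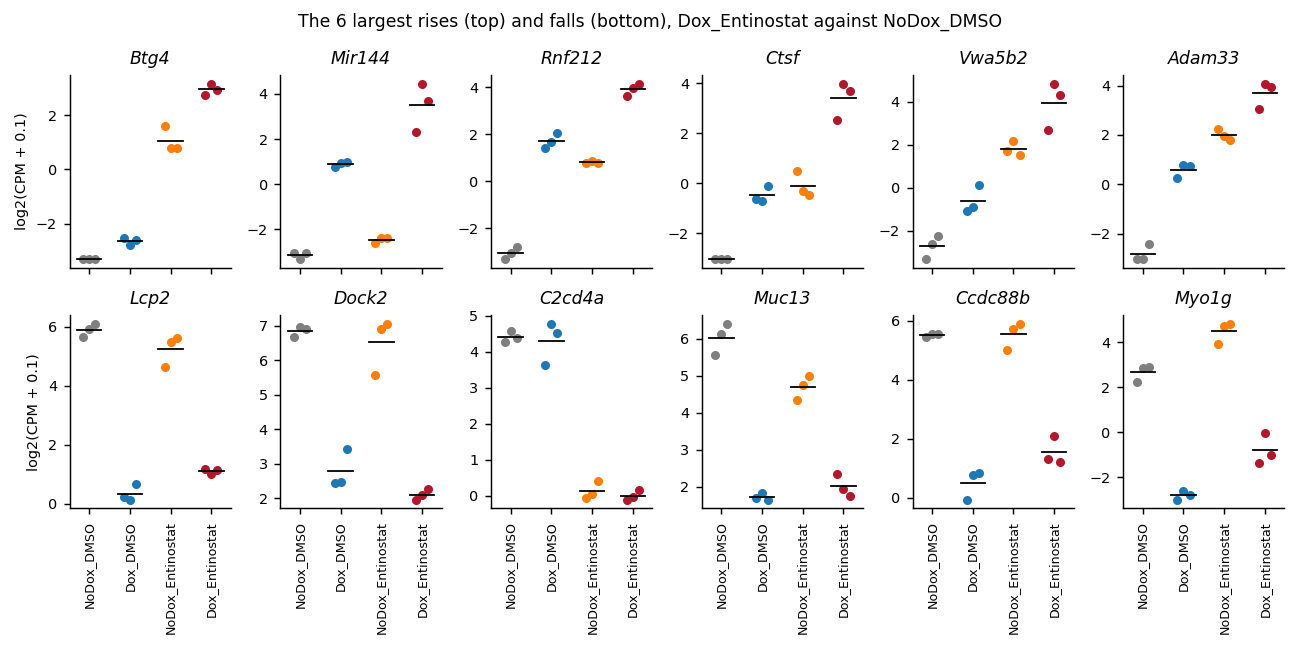
The 6 largest rises and 6 largest falls under the combined treatment, each point 1 of 12 libraries in log2(CPM + 0.1), with the line at the group mean. Combined and vehicle points do not overlap in any panel, and Mir144 and Rnf212 are higher in the combined libraries than in those of either single treatment.

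Several of the largest falls were also found with doxycycline alone. Lcp2 (ENSMUSG00000002699, mm10 chr11:34046920-34092295, plus strand), an adaptor of immune receptor signalling, fell from 50.4, 60.9 and 68.1 CPM in vehicle to 2.13, 1.91 and 2.09 CPM. Its Dox_DMSO libraries held 1.06, 0.994 and 1.49 CPM and its NoDox_Entinostat libraries 24.7, 44.0 and 49.0 CPM, so every doxycycline library was far below every other. The combined log2 fold change was -4.87 ± 0.28 (adjusted p = 1.42e-07), and the combined level was above that of doxycycline alone (0.79, adjusted p = 0.0204).

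Dock2 (chr11:34226815-34783892, minus strand), a guanine nucleotide exchange factor for RAC in blood cells, fell from 102, 124 and 120 CPM to 3.78, 4.14 and 4.67 CPM (log2 -4.78 ± 0.39, adjusted p = 1.48e-06). Ccdc88b (chr19:6844623-6858211, minus strand), a myosin- and microtubule-linked protein of immune cells, fell from 43.8, 47.2 and 46.4 CPM to 2.37, 4.21 and 2.25 CPM (-3.96 ± 0.33, adjusted p = 1.44e-06). Neither passed the test under entinostat alone (-0.20 ± 0.33 and 0.08 ± 0.28). Muc13, a membrane mucin gene (-4.07 ± 0.26), the myosin gene Myo1g (-3.60 ± 0.39) and the phospholipase C gene Plcb2 (-3.48 ± 0.37) were also called lower with doxycycline alone. Entinostat alone lowered Muc13 as well (-1.35 ± 0.24) but raised Myo1g (1.86 ± 0.34). The combined Myo1g level was above that of doxycycline alone (log2 3.47, edgeR adjusted p = 0.000425). Lcp2, Dock2 and Muc13 share exonic sequence with a noncoding gene, which unstranded counts cannot separate.

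The remaining large falls were called under entinostat alone. C2cd4a, at 19.1, 23.8 and 20.6 CPM in vehicle, held 0.828, 0.887 and 1.01 CPM in combined and 0.861, 0.932 and 1.24 CPM in NoDox_Entinostat libraries (combined log2 -4.54 ± 0.30, adjusted p = 3.80e-07). The platelet glycoprotein gene Gp5 (-3.27 ± 0.36), the heterochromatin protein gene Bend3 (-3.35 ± 0.34), the lysosomal sorting enzyme gene Nagpa (-3.25 ± 0.28) and the sulfate transporter gene Slc26a1, which shares exonic sequence with Idua (-3.22 ± 0.30), did not pass the test under doxycycline alone and were called lower under entinostat. Mmp14, a membrane metalloprotease gene, was lowered by each single treatment (-1.52 ± 0.28 and -1.79 ± 0.28) and fell by 3.47 on the log2 scale under both, from 39.8, 45.1 and 32.1 CPM to 3.94, 3.91 and 2.71 CPM.

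PU.1 binds a purine-rich core, GAGGAAG, so the promoter windows of these genes were read for that word on both strands. Windows ran from 250 bases before to 50 after the annotated start (RefSeq, GRCm38.p6). The word was found for 6 of the 12 largest falls (50%; Dock2, Ccdc88b, Plcb2, Bend3, Gp5 and Slc26a1), for 1 of the 8 largest rises that had a window (12.5%; Cntnap2), and for 15.4% of 27025 genes with a window. Of these falls, Dock2, Ccdc88b and Plcb2 were called lower with doxycycline alone, and Bend3, Gp5 and Slc26a1 were not. Lcp2, Muc13, Myo1g and Mmp14, called lower with doxycycline, had no match. Neither had C2cd4a and Nagpa, which were not called with it. A link to the knockdown was not tested. The longer word GAGGAAGT, which contains the first, was found for 1 of the 12 (Ccdc88b), 0 of the 8 and 3.69% of all genes. The windows of Ccdc88b (chr19:6858162-6858461, minus strand) and Dock2 (chr11:34783856-34784155, minus strand), both among the genes called lower with doxycycline, are printed on the strand of the gene with the word in capitals, or CTTCCTC where it lies on the other strand. In the Ccdc88b window a further copy of CTTCCTC begins at the last base in capitals. Its other bases are left in lower case, as overlapping copies were not marked.
Ccdc88b promoter window: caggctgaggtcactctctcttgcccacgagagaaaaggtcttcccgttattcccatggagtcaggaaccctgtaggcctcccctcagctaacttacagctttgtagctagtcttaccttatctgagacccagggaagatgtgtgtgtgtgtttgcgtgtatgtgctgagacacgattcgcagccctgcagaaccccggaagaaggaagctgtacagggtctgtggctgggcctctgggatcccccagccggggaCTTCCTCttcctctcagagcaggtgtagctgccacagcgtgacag
Dock2 promoter window: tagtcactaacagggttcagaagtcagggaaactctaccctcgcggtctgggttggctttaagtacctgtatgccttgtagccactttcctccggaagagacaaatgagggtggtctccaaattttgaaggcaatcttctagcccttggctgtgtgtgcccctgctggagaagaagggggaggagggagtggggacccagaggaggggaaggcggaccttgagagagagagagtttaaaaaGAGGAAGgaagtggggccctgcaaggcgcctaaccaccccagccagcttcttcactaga
A match is a description of these letters and says nothing of binding.

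Most globin and heme genes rose and most erythroid transcription factors fell. Of 18 globin and heme synthesis genes tested, 13 were higher and 2 lower, with a median log2 fold change of 1.66, against 35.5% higher and 29.4% lower over all genes. Of 30 red cell surface and membrane genes, 14 were higher and 4 lower (median 0.23). The lower count was 2 with library size alone, a 1 CPM filter or without vehicle library 2 or 3, 7 with no filter, 8 with a replicate block and 12 without the 2 libraries that stood apart. Of 20 erythroid transcription factors, 1 was higher and 14 lower (median -1.23), with 2 higher without Dox_DMSO library 1 or with a replicate block. The higher erythroid marker sum lay in the beta globins: without Hbb-bs and Hbb-bt, a check chosen after seeing the data, the other 8 markers summed to 2995 to 3400 CPM in vehicle and 2441 to 4130 CPM in combined libraries, which overlapped.

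The beta globin gene Hbb-bt stood at 118, 120 and 214 CPM in vehicle, 214, 172 and 242 CPM in Dox_DMSO, 603, 399 and 525 CPM in NoDox_Entinostat and 875, 2310 and 2023 CPM in the combined libraries (log2 3.53 ± 0.38, adjusted p = 9.61e-06). Combined library 1 was the lowest of its group and still above all libraries of the other groups. Hbb-bs was close in level and its reads cannot be fully separated from those of Hbb-bt. Alas2, the first enzyme of erythroid heme synthesis, whose exons overlap those of Apex2, rose from 4.76, 5.95 and 7.79 CPM to 39.9, 60.7 and 83.9 CPM (3.32 ± 0.35), above both single treatments. The heme enzyme gene Cpox fell (-1.12 ± 0.24), as did the glycine carrier gene Slc25a38 (-0.54 ± 0.16).

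The blood group gene Kel (2.26 ± 0.17) and the palmitoylated membrane protein gene Mpp1, which shares exonic sequence with Dkc1 (1.54 ± 0.16), stood above both single treatments. The anion exchanger gene Slc4a1 rose by 4.20 ± 0.63 and the membrane skeleton gene Epb42 by 3.31 ± 0.46, both close to their doxycycline values of 4.19 and 3.38. The 4 members that fell were Stom, Ermap, Slc2a1 and Aqp9, of which Ermap changed by -1.21 ± 0.22.

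Among the transcription factors, Gata1, the master regulator of red cell genes, fell from 282, 309 and 275 CPM to 131, 123 and 135 CPM (-1.16 ± 0.18, adjusted p = 0.000169). Klf1, the activator of adult globin genes, fell from 109, 114 and 109 CPM to 33.3, 30.6 and 38.3 CPM (-1.70 ± 0.23). Neither passed the test under doxycycline alone (0.08 ± 0.18 and 0.56 ± 0.23), and the combined level was not called different from entinostat alone in either. The globin repressor gene Bcl11a (-2.02 ± 0.24), Mafk (-2.02 ± 0.19), Lmo2 (-1.67 ± 0.16) and the progenitor factor Myb (-2.28 ± 0.20) fell too. Sox6, a repressor of embryonic globin, was the member that rose, from 5.26, 8.21 and 7.77 CPM to 49.2, 57.2 and 59.0 CPM (2.96 ± 0.36). The EPO receptor gene Epor rose with doxycycline (0.61 ± 0.13), fell with entinostat (-1.55 ± 0.13) and fell under both (-1.30 ± 0.13), and Stat5a, which acts below the receptor and shares exonic sequence with Stat3, fell by 1.93 on the log2 scale. Of 13 EPO and STAT5 response genes, 3 were higher, among them the feedback inhibitor Socs3 (3.18 ± 0.45), and 6 lower. These were 23.1% and 46.2%, against 35.5% and 29.4% of all genes.

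Of 31 macrophage and myeloid targets of SPI1, 17 were lower and 6 higher (median -0.86), and 21 of the 31 were called lower with doxycycline alone. Of all genes, 29.4% were lower and 35.5% higher under both, and 5.53% were lower with doxycycline alone. Besides Lcp2, the integrin gene Itgb2 fell from 78.0, 93.2 and 95.7 CPM to 13.9, 14.2 and 13.8 CPM (-2.67 ± 0.28), the tyrosine kinase gene Btk by 2.24 and the phosphatase gene Ptpn6 by 1.72 on the log2 scale. The 6 that rose were Fcgr2b, Tlr2, Csf3r, Cd14, Csf2rb and Ncf4, and all 6 were called higher under entinostat alone. Csf2rb, the shared receptor chain of interleukin 3 and GM-CSF, rose from 13.1, 21.2 and 32.9 CPM to 29.5, 87.3 and 76.2 CPM (1.52 ± 0.57, adjusted p = 0.0308), with overlap between the groups. Of 12 stem and progenitor regulators, 3 were higher (Hlf, Ikzf2 and Mecom) and 4 lower (Gata2, Myb, Etv6 and Lyl1). These shares, 25% and 33.3%, stood near or under the 35.5% and 29.4% of all genes. Hlf stayed at 1.25 to 1.96 CPM, and Ikzf2, the Helios gene, reached 31.9, 37.8 and 28.4 CPM from 5.84, 6.60 and 8.20 CPM.

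Some genes of other lineages were higher. Of 9 mast cell and basophil genes tested (13 listed, 10 in the table), 5 were higher (55.6%, against 35.5% of all genes) and 1 lower, the granzyme gene Gzmb (-2.41 ± 0.47), with 3 higher without vehicle library 2 or 3. A member near 0 in vehicle, such as Cma1 with 16 counts over that group, passed the filter only through other libraries. This share of higher genes is thus partly built in and supports nothing. Fcer1a, the alpha chain of the IgE receptor, rose from 5.69, 2.48 and 3.36 CPM to 65.2, 38.2 and 30.8 CPM (3.54 ± 0.81, adjusted p = 0.00220), and the mast cell protease gene Cma1 stayed near 1 CPM. The 4 mast cell and basophil markers summed to 4.19 to 8.43 CPM in vehicle and 33.7 to 76.0 CPM in the combined libraries, with 1 of them at 0 in the combined group. Of 16 megakaryocyte genes, 4 were higher and 3 lower (25.0% and 18.8%, both under the shares of all genes; median 0.02), and 5 were lower with no filter, with a replicate block and without Dox_DMSO library 1. Vwf, the von Willebrand factor gene, rose by 4.30 ± 0.34 to no more than 4.18 CPM, and Pf4, Gp9 and Rab27b rose while Gp5, Selp and Nbeal2 fell. The megakaryocyte markers summed to 30.6 to 67.0 CPM in vehicle and 65.4 to 126 CPM in combined libraries. The part of other cells in these rises was not tested.

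All 3 T and NK cell genes tested (12 listed, 8 in the table) were higher, from and to low levels. So were all 4 stromal and endothelial genes tested (12 listed, 8 in the table). A gene near 0 in vehicle passes the filter only where other libraries are higher. For the lists of this paragraph, shares of higher genes are thus partly built in and support nothing. Lck, a kinase of T cells, rose from 2.79, 1.85 and 3.12 CPM to 10.2, 8.39 and 8.72 CPM (1.81 ± 0.23), and Cd3g reached 1.21 to 1.37 CPM. The collagen gene Col1a1 rose from 0.0899, 0.0869 and 0.0873 CPM to 0.828, 2.73 and 1.03 CPM (4.08 ± 0.51). The T cell markers summed to 1.85 to 3.12 CPM in vehicle and 8.48 to 10.5 CPM in combined libraries, and the stromal and endothelial ones to 0.109 to 0.180 and 1.03 to 2.91 CPM. Of 4 B cell genes tested (11 listed, 10 in the table), 2 were higher: Cd22, at least 9.15-fold on 27 combined counts against 0, and Ebf1, with a ratio of 9.83 on 3 vehicle counts (3.05 to 50.4). Of 2 neutrophil granule genes, the proteinase gene Prtn3 rose (3.08 ± 0.39), to no more than 1.66 CPM. Of 30 listed neuronal genes bound by the repressor REST, 20 were in the table and only 7 passed the filter. Of these 7, 6 were higher and 0 lower, a share that the filter partly sets. The tubulin gene Tubb3 stood at 1.03, 1.93 and 1.51 CPM in vehicle and 18.8, 30.2 and 29.5 CPM in combined libraries (4.13 ± 0.41). Of 15 HOX and developmental genes tested (42 listed, 28 in the table), 8 were higher, among them Lhx2 (2.46 ± 0.24) and Hoxb9 (3.34 ± 0.53), and 2 lower, Six2 (-2.94 ± 0.28) and Pax6.

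Of 38 ribosome biogenesis and nucleolar genes, 34 were lower and 0 higher (89.5% lower against 29.4% of all genes), with a median log2 fold change of -1.96. Of the 38, 16 were below each single treatment as well, as were 7.1% of all genes. Pwp2, a component of the small-subunit processome, fell from 130, 129 and 122 CPM to 19.9, 10.3 and 12.4 CPM (-3.16 ± 0.29, adjusted p = 2.66e-06). The RNA methyltransferase gene Nop2 fell from 324, 348 and 325 CPM to 55.2, 40.3 and 42.4 CPM (-2.85 ± 0.27), and Polr1b, a subunit of RNA polymerase I, by 2.47 on the log2 scale. Myc, a transcription factor that drives ribosome genes, fell from 176, 255 and 208 CPM to 39.5, 40.4 and 40.3 CPM (-2.41 ± 0.27, adjusted p = 1.19e-05), below both single treatments.

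Of 21 glycolysis entries, 17 were lower (81.0%) and 3 higher (14.3%; median -1.29), against 29.4% lower and 35.5% higher over all genes. Of these entries 9 were below each single treatment, against 7.1% of all genes: Hk2, Pfkl, Pfkp, Tpi1, Aldoa, Gpi1, Gapdh, Ldha and Eno1. Aldoa, an aldolase gene, fell from 1355, 1382 and 1138 CPM to 455, 280 and 335 CPM (-1.86 ± 0.25), while a second identifier with the same symbol, at under 3 CPM, rose. Eno2, the neuronal enolase, rose from 0.0674, 0.0434 and 0.131 CPM to 5.77, 15.03 and 10.5 CPM (6.97 ± 0.52), and Pfkfb4 rose by 1.25 ± 0.28. Of 22 cholesterol synthesis genes, 17 were lower (77.3%) and 0 higher, with Sqle, squalene epoxidase, at -2.04 ± 0.25. Of 27 ATF4 and stress response genes, 18 were lower (66.7%), among them the amino acid transporter gene Slc7a5 (-2.28 ± 0.35), and Nupr1 was higher (1.39 ± 0.20).

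Of 46 S phase genes, 25 were lower (54.3%) and 7 higher (15.2%; median -0.44). Of 36 G2 and mitosis genes, 17 were lower (47.2%) and 3 higher (8.33%; median -0.47). Over all genes, 29.4% were lower and 35.5% higher. The higher counts were small and moved: S phase had 2 without vehicle library 2 and 4 without vehicle or combined library 3, and G2 and mitosis had 1 in each of these removals and 6 without the 2 libraries that stood apart. The replicative helicase gene Mcm2 fell from 311, 337 and 285 CPM to 76.4, 59.4 and 64.0 CPM (-2.22 ± 0.32), and the mitotic activator gene Cdc20 from 300, 301 and 299 CPM to 107, 104 and 126 CPM (-1.42 ± 0.19). The S phase genes that rose included Rfc4, Prim1, Tk1, Pcna, Ccne2 and Orc6, and Pcna, the replication clamp, changed by 0.71 ± 0.24. Of 12 cell cycle inhibitor genes, 7 were higher (58.3%) and Rbl2 was lower (8.33%), with 2 lower without Dox_DMSO library 1, NoDox_Entinostat library 1 or 2 or combined library 1. Cdkn1a, the p21 gene, rose from 4.07, 6.86 and 6.00 CPM to 19.2, 27.0 and 28.0 CPM (2.13 ± 0.37), and entinostat alone held it at 23.7, 46.5 and 44.5 CPM. Cdkn1b, the p27 gene, rose by 1.01 ± 0.17 and Btg2 by 2.58 ± 0.38.

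Of 18 BCL2 family genes, 8 were higher (44.4%) and 5 lower (27.8%), near the 35.5% and 29.4% of all genes, and 8 were lower with a replicate block. Bcl2l11, which encodes the death-promoting protein BIM, rose from 9.64, 9.04 and 8.27 CPM to 40.4, 57.7 and 51.2 CPM (2.47 ± 0.22, adjusted p = 2.28e-06), with Dox_DMSO at 23.7, 31.6 and 32.6 CPM and NoDox_Entinostat at 24.8, 40.0 and 37.4 CPM. All combined libraries were above all others, and the test passed against doxycycline alone (adjusted p = 0.00613) but not against entinostat alone (0.0682). Bmf, another death-promoting member, rose by 4.96 ± 0.73 from near 0, and Bik by 1.83 ± 0.28 to a level above both single treatments. Mcl1, a survival gene, fell from 281, 283 and 310 CPM to 107, 132 and 128 CPM (-1.25 ± 0.16), and Bak1, a pore-forming death gene, fell by 1.99 on the log2 scale. Bcl2, a survival gene, rose to 1.28 to 1.41 CPM. Bcl2a1a and Bcl2a1d, which rose, are near-identical copies whose single counts are uncertain. Of 17 p53 targets, 7 were higher (41.2%), also near the background, among them Phlda3 (2.29 ± 0.25), and 3 lower, among them Aen (-2.09 ± 0.18). The lower count was 5 without combined library 1 and 6 with a replicate block or without the 2 libraries that stood apart.

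Of 29 interferon-stimulated genes, 13 were higher (44.8%) and 7 lower (24.1%), near the 35.5% and 29.4% of all genes. Cmpk2, a mitochondrial nucleotide kinase gene, rose from 2.34, 1.89 and 2.53 CPM to 28.7, 27.3 and 33.9 CPM (3.73 ± 0.18, adjusted p = 4.93e-08), above both single treatments, and Oasl1 fell (-1.66 ± 0.20). Of 18 immediate early genes, 10 were higher, with Atf3 at 2.16 ± 0.19, and Junb was lower (-1.34 ± 0.23), with 2 lower without Dox_DMSO library 1 or NoDox_Entinostat library 1 or 3 and 4 with a replicate block. Of 14 genes known to rise with inhibitors of this class, 6 were higher (42.9%, near the 35.5% of all genes), including the linker histone gene H1f0 (1.89 ± 0.18), and the metallothionein genes Mt1 and Mt2 were lower.

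The genes of the drug's own targets and of the repressive complexes were also followed. Hdac1 held 338, 338 and 339 CPM in vehicle and 367, 304 and 344 CPM in combined libraries, and Hdac3 115, 111 and 109 against 127, 120 and 126 CPM. Neither passed the test, with log2 values of 0.00 ± 0.16 and 0.16 ± 0.13, though Hdac3 was called higher with DESeq2 (0.18, adjusted p = 0.0250). Hdac2 fell from 122, 130 and 140 CPM to 74.3, 72.0 and 83.6 CPM (-0.77 ± 0.17, adjusted p = 0.00142). Of 28 class I deacetylase and corepressor genes, 17 were lower and 1 higher (median -0.75), including Mbd2 (-1.42 ± 0.16), Mbd3 (-1.73 ± 0.20) and Mta2 (-1.47 ± 0.24), and the higher one was Rcor2 (3.41 ± 0.34). Of 11 subunits of PRC2, the Polycomb complex that methylates histone H3, 4 were lower (Phf19, Aebp2, Rbbp7 and Jarid2) and 0 higher. The lower share, 36.4%, was near the 29.4% of all genes. The count of higher subunits was 1 to 4 in other fits: 1 with DESeq2, 2 with library size alone or a replicate block, 3 with a 1 CPM filter, 4 without the 2 libraries that stood apart, 2 without either of these alone and 1 without combined library 1. The core genes Ezh2 (-0.38 ± 0.17), Suz12 (-0.42 ± 0.25), Eed (0.46 ± 0.22) and Ezh1 (0.56 ± 0.25) did not pass the test. All 4 passed with the same sign when the 2 groups were fitted alone (edgeR adjusted p = 0.0139, 0.0113, 0.00242 and 0.00795) and without the 2 libraries that stood apart (0.00180, 0.00163, 0.000681 and 0.00409). With a replicate block Ezh2 (0.0457), Eed (0.0175) and Ezh1 (0.00465) passed, as did Eed with library size alone (0.0222) and Ezh1 with DESeq2 (0.0470), and these 3 also passed without NoDox_Entinostat library 1 alone or Dox_DMSO library 1 alone.

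**Figure D3:**
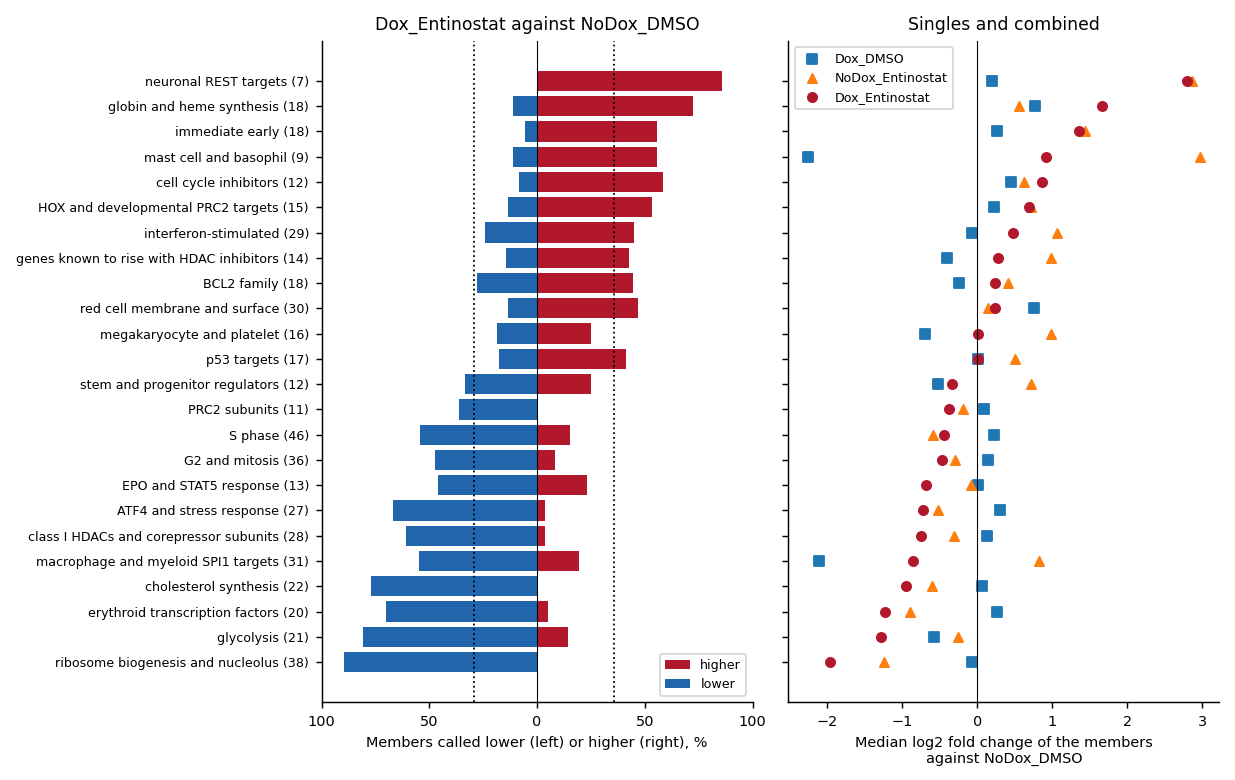
Left, for each gene list with at least 5 tested genes, the percentage called higher and lower under the combined treatment, with dotted lines at 35.5% and 29.4% of all genes; right, the list's median log2 fold change under doxycycline, entinostat and both. Ribosome biogenesis genes have the longest bar of lower calls and neuronal REST targets that of higher calls, the latter on the 7 of 30 listed genes that passed the filter.

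Next the double treatment was set against the sum of its single effects on the log2 scale. The departure is the combined log2 fold change minus those of doxycycline alone and of entinostat alone, which is the interaction term of the design. It draws on all 4 groups, so its error is larger than that of a single contrast. Over all genes 81.8% of departures were under 1 in size.

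Genes known to answer the knockdown were taken from experiment 1, whose libraries share no control with the others. Of 727 genes raised there (5.26% of 13811 tested), 716 were tested here, and 441 were higher (61.6%) and 74 lower (10.3%) under the combined treatment. Of 1154 lowered genes (8.36%), 1130 were tested here, and 596 were lower (52.7%) and 204 higher (18.1%). Over the 12643 genes matched by symbol, 28.0% were higher and 34.5% lower. Blocking experiment 1 by replicate number called 3611 genes raised and 3416 lowered, and the shares were then 35.6% of raised genes higher, 26.2% of them lower, and 48.5% of lowered genes lower. The share of raised genes that were lower was 2.54% when experiment 1 was fitted without its untreated library 3, 6.70% without its treated library 2 and 6.11% without its treated library 3.

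For the raised genes the median combined change was below the sum. Their median log2 fold change was 0.86 with doxycycline, 0.53 with entinostat, 0.96 with both against a median sum of 1.5, and the median departure was -0.61. For the 270 genes tested that had risen at least 2-fold in experiment 1, 258 were higher and 0 lower, and the medians were 1.87, 1.87, 2.96 and 4.01, with a departure of -1.0. Over all matched genes the median departure was -0.14.

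Of the 1130 lowered genes, 429 (38.0%) were called higher with entinostat alone, against 22.7% of all matched genes. Of the 527 lowered at least 2-fold, 297 were (56.4%), and under both treatments 227 were lower and 137 higher. Their median was -1.80 with doxycycline, 1.02 with entinostat, and -0.46 with both against a median sum of -1.03, a departure of 0.57 (0.54 with the 9 genes at 0 in a group set at their bound). Over all 1130 lowered genes the median departure was 0.12. With experiment 1 blocked by replicate number the median departures were -0.31 for raised and -0.06 for lowered genes, so that of the lowered genes took the other sign. Without the 2 libraries that stood apart they were -0.80 and -0.01. Without the 2 libraries that stood apart, 66.1% of the raised genes were higher and 59.4% of the lowered genes lower.

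Sorted instead by the calls of the single treatments, which share the vehicle libraries with the combined contrast, 365 genes were higher with each, and 360 of these were higher with both (median sum 3.85, median combined 2.88). All 99 genes lower with each were lower with both (-1.80 and -1.74). Of 432 genes lower with doxycycline and higher with entinostat, 208 were higher, 64 lower and 160 not called under both (median sum -0.17, median combined 0.63). Of 31 genes with the opposite pair of calls, 2 were higher and 13 lower. Of 7478 genes called by neither treatment, 1477 were higher and 1886 lower under both.

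**Figure D4:**
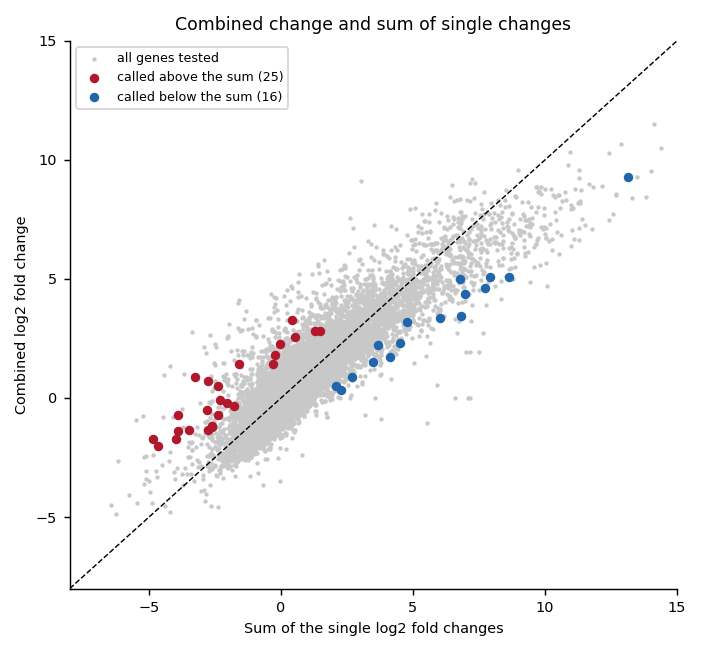
Each point is 1 of 15051 genes, with the sum of the doxycycline and entinostat log2 fold changes on the x axis and the combined log2 fold change on the y axis; the dashed line marks equality and colours mark the 41 genes whose departure passed the test. The 25 genes above the line and 16 below it are coloured.

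The departure test called 41 genes (0.272%), 25 above the sum (0.166%) and 16 below it (0.106%), while 2383 genes had an unadjusted p under 0.05. The number depends on the fit and on the libraries used. With all 12 libraries it was 67 above and 139 below with no filter, 122 and 113 with DESeq2, 73 and 104 with a replicate block, 18 and 11 with library size alone and 19 and 17 with limma-voom, so the balance between above and below turned with no filter and with the block. Of the 41 genes, 29 stayed called with library size alone and 29 with limma-voom. Without Dox_DMSO library 1 and NoDox_Entinostat library 1 it was 3326 above (21.5%) and 4646 below (30%), without the first of these alone 1018 and 1619, and without the second alone 928 and 2133. Removing any other library left fewer: 14 and 6 without Dox_DMSO library 2, 11 and 6 without library 3, 12 and 6 without NoDox_Entinostat library 2 or 3, 20 and 8, 6 and 3, and 14 and 6 without Dox_Entinostat library 1, 2 and 3, and 20 and 10, 12 and 5, and 13 and 7 without NoDox_DMSO library 1, 2 and 3. All 41 genes kept their sign and their call without the 2 libraries that stood apart. That fit calls far more genes and uses the same remaining libraries that selected the 41, so this supports nothing. With any other single library removed, 9 to 27 of the 41 stayed called. All 41 were called with doxycycline in DMSO: the 25 above were all lower with it and the 16 below all higher. The departure subtracts the doxycycline effect and shares its libraries, so these opposite signs are partly built in and support nothing. On a CPM scale, where single changes are added as levels, 29 of the 41 kept their sign, 15 of the 25 and 14 of the 16. Among the 14, the CPM departure was smaller than its standard error for Ephb3 (-6.35 ± 9.87), Fhdc1 (-5.87 ± 10.1), Plpp1 (-1.51 ± 5.35), Fgf2 (-0.26 ± 0.93) and Yes1 (-0.57 ± 0.89). It was larger than its standard error for the rest of the 29.

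Of the 25 genes above the sum, 17 were called higher with entinostat alone, against 30.3% of all genes. The departure also subtracts the entinostat effect and shares its libraries, so this count supports nothing. Tespa1, a calcium signalling gene of T and mast cells, held 6.38, 7.91 and 7.53 CPM in vehicle, 0.246, 0.0432 and 0.108 CPM in Dox_DMSO, 53.8, 37.7 and 36.0 CPM in NoDox_Entinostat and 11.9, 16.4 and 12.2 CPM in the combined libraries. The 4 groups did not overlap, with the combined libraries between vehicle and entinostat. Its departure was 4.14 ± 0.47 (adjusted p = 0.00493), with a combined log2 fold change of 0.89 against a sum of -3.25. On the CPM scale the same gene lay 21.9 CPM below the sum.

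Lgals1, which encodes the sugar-binding protein galectin 1, held 75.7, 77.9 and 77.4 CPM in vehicle, 5.16, 2.16 and 2.58 CPM in Dox_DMSO, 318, 245 and 233 CPM in NoDox_Entinostat and 91.4, 173 and 118 CPM in combined libraries. Its departure was 3.49 ± 0.43 (adjusted p = 0.00493). Its combined call (0.73 ± 0.30, adjusted p = 0.0455) was lost without any 1 of the 3 vehicle libraries (0.114, 0.0995 and 0.101), without combined library 2 (0.233) or 3 (0.0718), and without NoDox_Entinostat library 2 (0.0544) or 3 (0.0542).

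The inhibitory receptor gene Cd200r1 followed the same order, at 4.92, 5.89 and 11.0 CPM in vehicle, 0.418, 0.259 and 0.474 CPM in Dox_DMSO and 18.3, 20.3 and 20.3 CPM in combined libraries (departure 3.02 ± 0.43). Glipr1, which shares exonic sequence with Krr1, reached 20.7, 22.1 and 22.0 CPM from 2.02, 2.02 and 2.62 CPM (2.88 ± 0.42). Rnase6, a ribonuclease gene (3.16 ± 0.47), the actin-severing gene Scin (3.13 ± 0.44), the transporter gene Slc45a3, which overlaps Gm29103 (2.66 ± 0.34) and the melanocortin receptor gene Mc5r (2.53 ± 0.42) were called lower under the combined treatment, by less than the sum. On the CPM scale Lgals1 (-64.3 CPM), Cd200r1 (-19.2), Rnase6 (-13.9) and Scin (-4.87) lay below the sum of levels. Rnase6 lost that combined call in several removals, with an adjusted p of 0.179 without vehicle library 3, 0.0935 without vehicle library 2, and 0.144 and 0.0760 without combined library 1 and 2. Its groups overlapped, at 7.37, 11.99 and 14.8 CPM in vehicle and 5.01, 7.34 and 8.30 CPM in combined libraries.

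Of the 16 genes below the sum, 15 were called higher with each single treatment, as were 365 of all 15051 genes. Both single effects are subtracted in the departure, so these calls are partly built in and support nothing. Osr2, a zinc finger transcription factor gene, held 0.404, 0.608 and 0.502 CPM in vehicle, 3.49, 5.21 and 4.72 CPM in Dox_DMSO, 3.36, 4.35 and 3.41 CPM in NoDox_Entinostat and 5.24, 5.43 and 4.95 CPM in combined libraries. The combined libraries overlapped those of doxycycline alone. The combined log2 fold change was 3.36 against a sum of 6.01, a departure of -2.65 ± 0.33 (adjusted p = 0.00493). The lipid desaturase family gene Fads3 rose from 10.9, 10.4 and 8.47 CPM to 47.3, 49.3 and 50.3 CPM, with a departure of -2.20 ± 0.27. Its Dox_DMSO libraries held 46.6, 72.2 and 73.9 CPM, so the overlap rested on Dox_DMSO library 1, which stood apart. The combined level did not pass the edgeR test against doxycycline alone (log2 -0.39, adjusted p = 0.0877).

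Btnl10, a butyrophilin-like gene, held 22.0, 61.9 and 57.3 CPM in Dox_DMSO and 14.6, 17.2 and 16.7 CPM in combined libraries, so the double treatment gave less RNA than doxycycline alone (log2 -1.54, adjusted p = 0.00114). Its departure was -3.40 ± 0.47 (adjusted p = 0.00953). The ephrin receptor gene Ephb3 (-3.54 ± 0.61), the formin gene Fhdc1 (-3.08 ± 0.55), the phosphatase gene Plpp1, which shares exonic sequence with Mtrex (-2.57 ± 0.32), and the transporter gene Abcg4 (-2.39 ± 0.42) were also below. Rnf212 had the largest shortfall, -3.87 ± 0.58, from a sum of 13.13, although its CPM lay 10.2 above the sum of levels. Its log2 values start from 3 vehicle counts.

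Some of these calls were near the threshold. Ephb3, Fhdc1 and Abcg4 lost theirs with the removal of any single library other than the 2 that stood apart, with adjusted p from 0.0590 to 0.152, and Mc5r with that of any of these except combined library 3 (0.0693 to 0.115). Without combined library 2, Btnl10, Cd200r1, Scin, Glipr1, Rnf212 and Rnase6 had adjusted p of 0.0540 to 0.0588. Rnase6 had 0.0585 without Dox_DMSO library 3, and Rnf212 0.0773 without vehicle library 2. Of all members of the gene lists, the test called 1, Rhd of the red cell surface, a blood group gene (-1.58 ± 0.28, adjusted p = 0.0390). It stood at 43.0, 50.1 and 43.9 CPM in vehicle, 131, 204 and 179 CPM in Dox_DMSO and 75.9, 49.0 and 67.6 CPM in combined libraries, which overlapped vehicle.

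**Figure D5:**
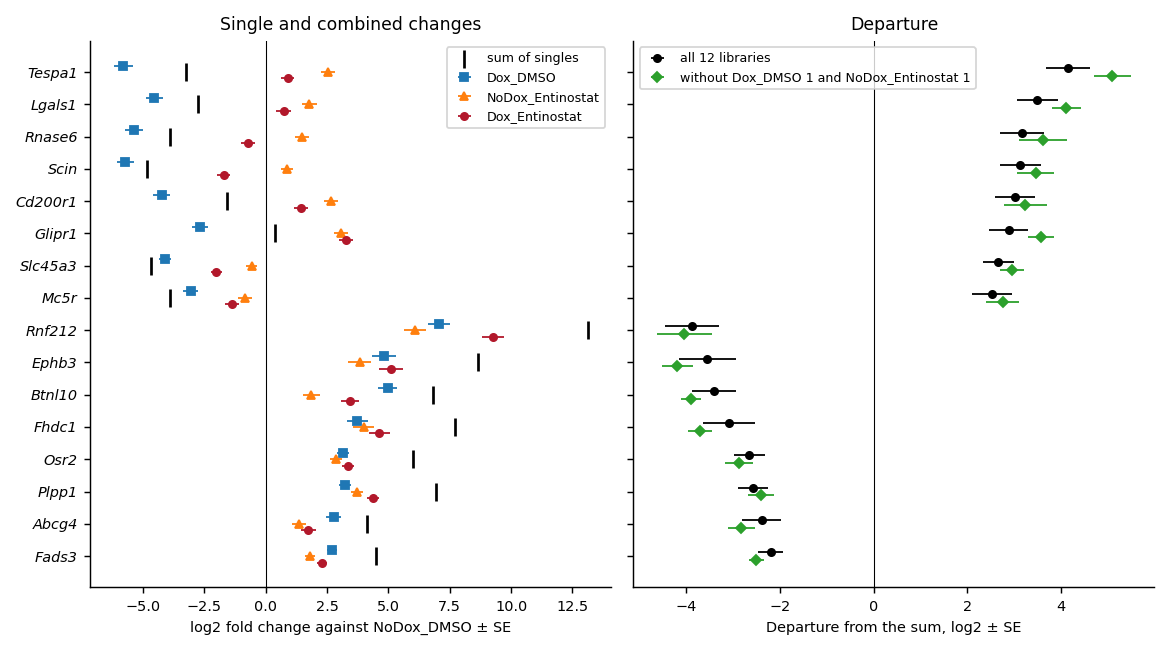
For the 16 named departure genes, left, the log2 fold changes of doxycycline, entinostat and both with bars of 1 standard error and a tick at the sum; right, the departure with all 12 libraries and without Dox_DMSO library 1 and NoDox_Entinostat library 1. All 16 departures keep their sign in both fits, from 4.14 for Tespa1 to -3.87 for Rnf212 with all libraries. The fits share all their other libraries, so this is partly built in.

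Without the 2 libraries that stood apart, several lists had more departures below the sum than above it. Departures below it were called for 16 of 20 erythroid transcription factors with 0 above, 22 of 30 red cell membrane genes with 1 above, 22 of 28 corepressor genes with 1 above, 14 of 21 glycolysis entries with 0 above and 22 of 38 ribosome biogenesis genes with 6 above, against 30% below and 21.5% above of all genes in that fit. Most other lists leaned below too, such as G2 and mitosis, with 22 below and 5 above of 36. Globin and heme synthesis genes split, 5 above and 4 below of 18, as did BCL2 family genes, 7 and 6 of 19. With all 12 libraries none of these lists except the red cell one had a call. The median departures were then -0.71 for erythroid transcription factors, -0.91 for red cell, -0.63 for corepressor, -0.53 for glycolysis and -0.53 for ribosome biogenesis genes. They were 0.13 for globin and heme genes and -0.09 over all genes.

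A stricter reading asked where the double treatment went past vehicle and past each single treatment in the same direction. This held for 825 genes higher (5.48%) and 1069 lower (7.1%). Without the 2 libraries that stood apart the counts were 2754 and 3400, without Dox_DMSO library 1 alone 1592 and 1887, and without NoDox_Entinostat library 1 alone 1740 and 2469. They were lower without NoDox_Entinostat library 2 (187 and 246) or 3 (169 and 221) and without combined library 2 (240 and 285) or 3 (210 and 203).

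Cd36, a fatty acid receptor gene of red cell precursors (ENSMUSG00000002944, chr5:17781690-17888801, minus strand), was among the 6 with the largest smallest step upward. It held 0.494, 0.695 and 0.524 CPM in vehicle, 3.63, 4.30 and 3.77 CPM in Dox_DMSO, 14.8, 11.5 and 6.91 CPM in NoDox_Entinostat and 61.1, 68.5 and 70.7 CPM in combined libraries. No group overlapped another. The combined log2 fold change was 6.86 ± 0.31 (adjusted p = 3.96e-08) against a sum of 7.04, and the departure, -0.17 ± 0.35, did not pass the test. The other 5 were Mir144, Mir451a, Ctsf, Vwa5b2 and Bc1, a short noncoding RNA transcribed by RNA polymerase III, which rose from 2.83, 0.977 and 2.29 CPM to 9.53, 22.7 and 24.2 CPM while neither single treatment passed the test.

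Downward, the adenylate kinase gene Ak4 stepped down evenly, from 29.3, 27.1 and 28.4 CPM in vehicle to 10.04, 11.7 and 11.0 CPM in Dox_DMSO, 12.3, 10.7 and 11.1 CPM in NoDox_Entinostat and 3.42, 3.64 and 3.52 CPM in combined libraries (log2 -3.0 ± 0.15, adjusted p = 6.00e-08). Its departure was -0.32 ± 0.20, not past the threshold. Spn, the CD43 surface sialoglycoprotein gene, fell from 489, 513 and 459 CPM to 101, 66.8 and 65.8 CPM (-2.64 ± 0.29). The RNA-binding protein gene Larp4, which shares exonic sequence with 2310068J16Rik, fell from 302, 355 and 353 CPM to 67.9, 51.2 and 51.4 CPM (-2.57 ± 0.32). Nucb1, a calcium-binding Golgi gene (-2.52 ± 0.34), Ttc7b, which overlaps Gm10432 (-2.34 ± 0.38), and Mmp14 completed the 6.

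Where the single treatments opposed each other, the outcome differed from gene to gene. Fcgr2b, the inhibitory IgG receptor gene, had 0.225, 0.109 and 0.196 CPM in vehicle, 0 in all Dox_DMSO libraries, 7.48, 7.91 and 7.71 CPM in NoDox_Entinostat and 0.336, 0.296 and 0.352 CPM in combined libraries. It was at least 7.83-fold lower with doxycycline. Its combined call (0.89 ± 0.33, adjusted p = 0.0350) was lost in 6 of 12 removals of 1 library (adjusted p up to 0.150). Fgd2, a CDC42 exchange factor gene, kept more of its entinostat level, from 0.292, 0.369 and 0.415 CPM in vehicle to 1.41, 5.27 and 3.81 CPM with both and 7.10, 9.5 and 9.69 CPM with entinostat (combined 3.27 ± 0.47). Nectin4 (4.08 ± 0.55), P2ry10b (2.50 ± 0.43) and Tmem150b, which shares exonic sequence with Brsk1 (2.19 ± 0.40), also ended above vehicle.

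In the other direction, the erythroid hormone gene Erfe, which shares exonic sequence with Ilkap, ended at 4.01, 5.55 and 5.81 CPM against 5.64, 4.95 and 4.95 CPM in vehicle (-0.02 ± 0.27), after 11.1, 21.7 and 23.6 CPM with doxycycline. The tetraspanin gene Tspan33 (-0.76 ± 0.19) and Taf1c, of the RNA polymerase I initiation complex, which shares exonic sequence with Dnaaf1 (-0.83 ± 0.15), ended below vehicle, and Ptdss2 (-0.29 ± 0.13) did not pass the test. Ptdss2 passed with DESeq2 (adjusted p = 0.0194), a replicate block (0.0460), the 2 groups alone (0.0384) and without the 2 libraries that stood apart (0.00779).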

How the data were processed

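RNA from 18 cultures was sequenced as unstranded polyadenylated libraries, per the labels' protocols. The deposited values are raw counts per gene, made by the authors; their processing notes list bcl2fastq 2.17.1.14, STAR, DESeq2 and mm10, and the counting tool and annotation are not given in the sources used here. The table of experiment 1 holds no count under 1, and its libraries held 82.7 to 114 M counts. Members, lists and tests were chosen with earlier results of these data known.

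The 12 libraries of the entinostat experiment were fitted together in edgeR 4.0.16 (R 4.3.3; TMM scaling, filterByExpr, quasi-likelihood test, two-sided, Benjamini-Hochberg adjusted over 15051 genes, threshold 0.05), with 1 mean per group and no replicate block. Standard errors were derived from that fit, as the absolute log2 fold change divided by the square root of the test's F statistic. P-values measure the spread between these cultures.

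Experiment 1 was fitted alone, with 13811 genes and no replicate block in its main fit, and matched by symbol. Its replicate numbers paired its libraries, with deviation correlations of 0.829, 0.724 and 0.313 between equal numbers, so values blocked by number stand beside its shares. Coordinates come from GENCODE vM21, which held 26853 of 26903 identifiers.

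Named genes were a preset group (Spi1, Bcl2l11, Cdkn1a, Myc, Gata1, Klf1, Hdac1 to Hdac3, Ezh1, Ezh2, Suz12 and Eed), the 12 largest rises and falls, the 8 largest departures each way, 6 genes each way beyond both single treatments, 5 of each opposed kind, those with a mean of at least 5 CPM in a group compared, and the leading members of each list; other list members were named after their values were seen. Alternatives were RLE factors, library size alone, other filters, DESeq2 1.42.0, limma-voom 3.58.1, a replicate block, the 2 groups alone, a 2-fold minimum, each library left out, 2 libraries left out together and the sum on the CPM scale. Results for a few genes are not reported here.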

Additional observations from a re-analysis of the deposited data

Results flagged for a closer look

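For 16 genes the doxycycline effect in entinostat-treated cells differed from that in DMSO-treated cells by the edgeR interaction test, a difference equal to the departure from the sum of single effects on the log2 scale. The effect was higher with entinostat for Tespa1 (4.14), Lgals1 (3.49), Rnase6 (3.16), Scin (3.13), Cd200r1 (3.02), Glipr1 (2.88), Slc45a3 (2.66) and Mc5r (2.53). It was lower with entinostat for Rnf212 (-3.87), Ephb3 (-3.54), Btnl10 (-3.40), Fhdc1 (-3.08), Osr2 (-2.65), Plpp1 (-2.57), Abcg4 (-2.39) and Fads3 (-2.20). These genes were named as the 8 largest of each sign among 41 called, so their sizes are those of a selected set.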

How the results depend on the processing

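Counts of the combined treatment against vehicle stayed within 1.5 times of 5348 and 4425 in every fit run except the 2-fold minimum, which gave 2411 lower. Leaving out 1 library gave 4699 to 6007 higher and 3830 to 4796 lower. Departures above and below the sum numbered 67 and 139 with no filter, 122 and 113 with DESeq2, and 3326 and 4646 without Dox_DMSO replicate 1 and NoDox_Entinostat replicate 1, and 6 to 1018 and 3 to 2133 with 1 library left out. Genes past both single treatments numbered 2754 and 3400 without those 2 libraries, 1719 lower with no filter, 258 lower at 2-fold or more, and 169 to 1740 and 203 to 2469 with 1 library left out. With a replicate block the departures were 73 and 104 and the genes past both single treatments 1684 and 1794. The 18 same-number correlations ran from 0.00947 to 0.780, against -0.657 to 0.476 between unequal numbers. Of 12 libraries, 12 correlated best with a library of their own number, and the main fit leaves any such pairing out. For genes raised in experiment 1, a replicate block there gave 35.6% higher and 26.2% lower, with 48.5% of lowered genes lower, and DESeq2 gave 52.0% and 15.8%. Leaving out 1 library of experiment 1 gave 63.3% to 79.7% of raised genes higher, 2.54% to 9.87% lower, and 53.2% to 58.8% of lowered genes lower and 15.8% to 18.5% higher. Hdac1, at 0.00, took the other sign with no filter (-0.107), limma-voom (-0.00417), a replicate block (-0.00336), without the 2 libraries (-0.00809) and with 1 library left out (range -0.0725 to 0.0683). Erfe, at -0.02, turned positive with RLE factors (0.0123), library size alone (0.0912), a 1 CPM filter (0.0969), DESeq2 (0.0123), the 2 groups alone (0.00693) and in 2 single removals (range over removals -0.124 to 0.122). On the CPM scale the departure changed sign for Tespa1 (-21.9), Lgals1 (-64.3), Rnase6 (-13.9), Scin (-4.87), Cd200r1 (-19.2) and Rnf212 (10.2). The cause was not tested for any of these. Of the other values of named genes, 3448 combined and 278 departure values kept direction and call, 31 and 52 lost the call, and 38 combined ones gained it. The list departures and class values without the 2 libraries were chosen after seeing the data. Depth limits genes with under 3 counts in a group, whose folds are given as bounds or counting intervals.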
